A study of Drosophila melanogaster with 15 samples.

Results

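The 10 genes described here carry the EGFR and MAPK signal of the fly: the ligands spi and vn, the protease rho, the secreted inhibitor aos, the receptor Egfr, the cascade members Ras85D and rl, the intracellular inhibitor sty and the nuclear factors pnt and aop. They were chosen by symbol, as rows of a table of raw read counts for 17408 Drosophila melanogaster genes, and all 10 were found under their own symbols. A gene entered the tests if its counts were high enough for the group size, which 10056 genes were, all 10 members among them.

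In this pathway a membrane-bound ligand such as Spitz is cut and released by the protease Rhomboid, binds the receptor Egfr and switches on the small GTPase Ras85D, which acts through a kinase cascade that ends in the MAP kinase Rolled, the product of rl. Rolled acts in the nucleus on the ETS factors Pointed, an activator, and Anterior open, the repressor also called Yan, and the pathway induces its own inhibitors, Argos and Sprouty. In the testis, germ cells send Spitz to the somatic cyst cells that enclose them, and Egfr in the cyst cells is needed for that enclosure and for germ cell differentiation.

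RNA was sequenced from cells of adult testes that carried GFP under tj-Gal4, a driver for the somatic cyst lineage, and that were sorted by their fluorescence. There were 5 groups of 3 libraries each, all from w/Y males with tj-Gal4 and UAS-GFPnls, and each library came from 50 to 100 flies and 100 to 200 testes. WT had a further copy of UAS-GFPnls, Upd had UAS-Upd with UAS-GFP, which adds a secreted ligand of the JAK/STAT pathway, and Ci had UAS-Ci5Ncm5 with UAS-Ci5m30, forms of the transcription factor of Hedgehog signalling. Chinmo had UAS-5'UTR-chinmo-3'UTR with tub-gal80TS, a temperature-sensitive block of Gal4, and the chinmo RNAi group had a UAS-chinmo RNAi transgene with UAS-dcr2. Flies were used 10 days after eclosion, except those of the chinmo RNAi group, which were 2 or 3 days old, so that age and genotype cannot be told apart there. The series asked which genes differ in cyst stem cells with raised JAK/STAT signalling, raised Hedgehog signalling, or more or less Chinmo, a transcription factor that keeps the male identity of these cells. Nothing in the labels tells whether the 3 libraries of a group stem from separate cultures, and the p-values therefore cover the spread of these samples alone, which may be technical.

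Libraries held 1143049 to 2943120 counts in genes, and Chinmo 3 stood apart from the other libraries before any result was drawn. It had counts in 4983 genes, against 8109 to 13229 in the other libraries, and results that rest on it are given with and without it. The libraries labelled chinmo RNAi did not show less chinmo RNA, at 147, 143 and 61.4 CPM (TMM-scaled counts relative to the total of the library) against 70.8, 75.2 and 69.8 CPM in WT, so directions drawn from that group refer to its label and not to a measured loss. The ligand gene upd1 was at 177, 208 and 202 CPM in Upd and at 9.75, 9.15 and 1.42 CPM in WT. The driver gene tj itself was low in WT, at 16.9, 1.59 and 0.475 CPM, and was at 219, 246 and 199.6 CPM in Upd.

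All 10 genes have coordinates in the BDGP6.54 annotation, the assembly that the submitters named as dm6 and BDGP6. On chromosome arm 2L lie spi (19567900 to 19577315, minus strand, 5 transcripts) and aop (2156484 to 2178754, minus strand, 5 transcripts). On 3L lie vn (5813338 to 5845664, minus), rho (1463811 to 1468944, plus), aos (16470386 to 16483650, minus) and sty (3401153 to 3424935, minus). On 3R lie Ras85D (9510561 to 9513067, minus) and pnt (23290231 to 23346167, minus, 4 transcripts), and on 2R lie Egfr (21522420 to 21559977, plus, 2 transcripts) and rl (1071462 to 1125927, plus, 7 transcripts). The merged exons span from 1817 bases in spi to 7591 bases in rl. The exons of aop share 307 bases, or 5.63% of their length, with CG15382 on the opposite strand, which had 0 to 30 counts per library. No other member shares exon bases with another gene, although rho lies inside the span of Ptp61F on the opposite strand.

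Across all 5 groups, 7 of the 10 genes differed in edgeR's quasi-likelihood test for any difference, where 46.9% of all genes tested did. These were aos (adjusted p = 0.000688), aop (0.00204), sty (0.00613), pnt (0.00673), spi (0.00798), Egfr (0.0224) and rho (0.0321). The genes vn (adjusted p = 0.664), Ras85D (0.271) and rl (0.113) did not pass. Without Upd 1 the count was 4, and without Chinmo 3 it was 9. Upd had the highest mean of the 5 groups for spi, rho, aos, Egfr, pnt and aop. Where groups were ordered by their mean level, the neighbours Upd and Ci differed beyond their spread for pnt and for aop, and no other pair of neighbours passed the test for any member.

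**Figure D1:**
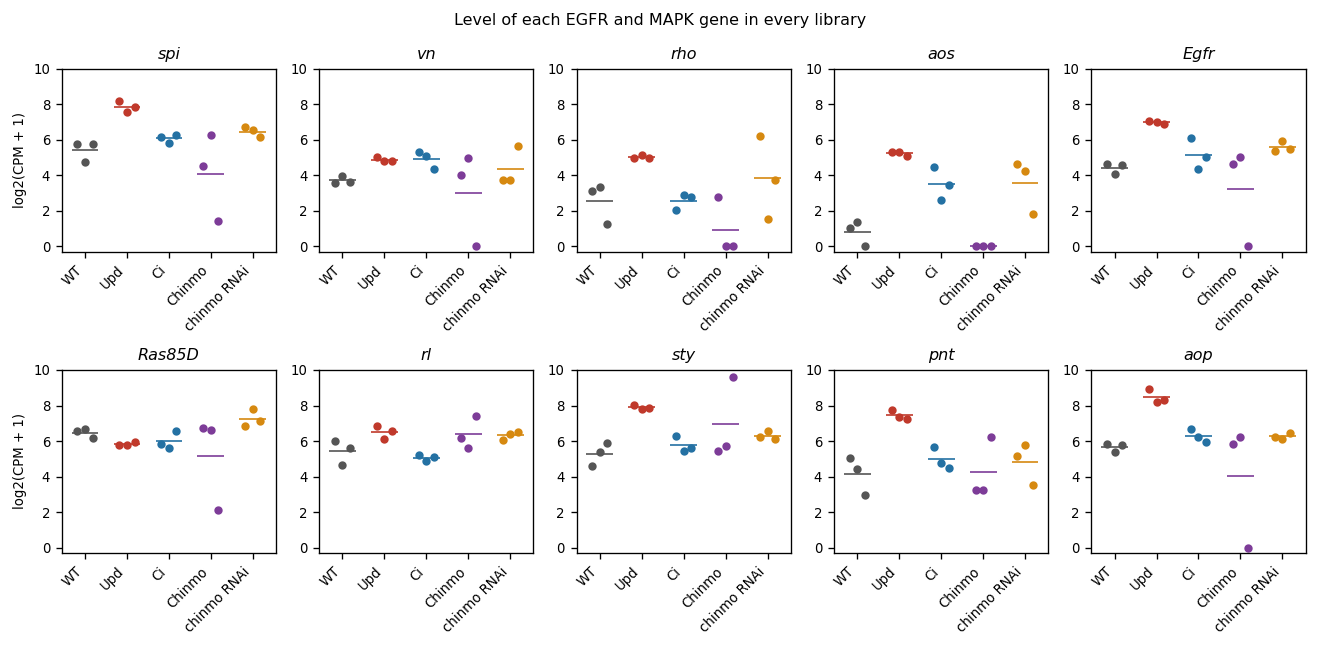
Level of each of the 10 genes in every library, as log2(CPM + 1), with 1 point per library, 5 groups of 3 libraries and a bar at the mean of the log values. The 3 Upd points lie above all 3 WT points for every gene except Ras85D, where they lie below, and 1 Chinmo point is at 0 for vn, Egfr and aop.

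Upd libraries held more RNA of the receptor, of the ligand gene spi, of both inhibitors and of both nuclear factors than WT libraries, and the cascade genes Ras85D and rl did not pass the test. In Upd against WT, spi, aos, Egfr, sty, pnt and aop rose, 6 of the 10 genes, where 9.22% of all genes tested rose and 25.3% fell, and no member fell. Every Upd library was above every WT library for 9 members, as it was for 32.3% of all genes, and every one was below for the remaining member, Ras85D, as for 35.1% of all genes. The median log2 change was 2.48 over the members and -0.07 over all genes tested. In sorted bulk RNA like this, a change in the number of cells of a type and a change in RNA per cell cannot be told apart.

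Upd libraries also differed from WT in their cell type markers. Summed over 12 early germline markers, all 12 of them with a count, they held 1644 to 1901 CPM, against 70.8 to 116 CPM in WT, where 10 or 11 had a count and bam, zpg or stet was at 0 in at least 1 library. The 7 cyst stem cell markers summed to 2036 to 2592 CPM in Upd and to 127 to 170 CPM in WT. The 6 markers of differentiating cyst cells summed to 236 to 297 CPM in Upd and to 2508 to 3317 CPM in WT. That sum can rest on 1 gene, since Akr1B was 5158 of 5451 CPM in Chinmo 1 and 3156 of 3583 CPM in Chinmo 2. It therefore does not stand for each of the 6 markers. The 12 late germline markers summed to 130 to 207 CPM in Upd and 3932 to 7355 CPM in WT. Hub markers, 6 genes, summed to 1290 to 1532 CPM against 321 to 360 CPM, but they did not move together. Among them magu, CadN and upd1, the gene of the forced ligand, were higher in every Upd library than in WT, while hh, at 1.05 to 1.25 CPM, and Fas3, at 6.31 to 20.8 CPM, were lower. The 8 muscle markers summed to 15.6 to 22.0 CPM in Upd and 239 to 288 CPM in WT, where most of the sum was Act87E, Mlc2 and TpnC73F. The part of these cell types in the changes of the 10 genes was not tested.

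The ligand gene spi, which encodes Spitz, was at 292, 189 and 227 CPM in Upd and at 53.4, 25.9 and 52.7 CPM in WT. The groups were well apart, and the log2 change was 2.42 ± 0.70 (SE, adjusted p = 0.0096), although the call was lost without WT 2 (adjusted p = 0.0574). In Ci spi was at 70.8, 55.4 and 75.1 CPM. The libraries labelled chinmo RNAi held it at 105, 92.5 and 69.1 CPM. Every library of these groups was above WT, but by less than the test needed, with log2 changes of 0.61 ± 0.67 and 1.01 ± 0.68. Chinmo libraries were at 21.7, 77.1 and 1.66 CPM and spanned the WT values.

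The other ligand gene, vn, encodes Vein, a secreted neuregulin-like ligand that needs no cleavage by Rhomboid. It was at 31.6, 26.7 and 26.8 CPM in Upd, at 38.8, 32.5 and 19.6 CPM in Ci, and at 10.8, 14.7 and 11.4 CPM in WT. Both groups lay wholly above WT, with log2 changes of 1.20 ± 0.92 (adjusted p = 0.334) in Upd and 1.30 ± 0.92 in Ci, neither past the threshold. Ci held the highest mean of vn, the only member for which it did, yet Ci and Upd differed by 0.10 on the log2 scale (adjusted p = 0.950). In the libraries labelled chinmo RNAi vn was at 12.2, 12.2 and 49.0 CPM, and the last of these set the group's mean.

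The protease gene rho was at 30.4, 34.4 and 30.6 CPM in Upd and at 7.70, 9.15 and 1.42 CPM in WT. The groups did not overlap, and the log2 change of 2.37 ± 1.15 missed the threshold (adjusted p = 0.115) with a 95% interval of -0.00 to 4.74. The libraries labelled chinmo RNAi were at 72.5, 1.93 and 12.4 CPM, the widest range of the 5 groups for this gene. In Ci rho was at 3.12, 6.31 and 5.97 CPM. In Chinmo it had a count in 1 library (5.84 CPM) and none in the other two.

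The inhibitor gene aos, which encodes Argos, a secreted protein that binds Spitz and keeps it from the receptor, was almost silent in WT, at 1.03, 1.59 and 0 CPM, or 6 counts in all. In Upd it was at 39.5, 38.6 and 33.4 CPM, and in Ci at 21.4, 5.14 and 9.81 CPM. The libraries labelled chinmo RNAi were at 23.7, 17.99 and 2.58 CPM. All 9 of these libraries were above every WT library, and no Chinmo library had a count. The log2 change was 5.29 ± 1.20 in Upd (adjusted p = 0.0017), the widest of the 10 genes. With no count in Chinmo, group means of aos were set against its limit there, 0.904 CPM for 3 counts over the group. They were 41.1-fold that limit in Upd, 13.4-fold in Ci and 16.3-fold in the libraries labelled chinmo RNAi. The limit covers counting error alone, and these folds leave out the spread among libraries.

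The receptor gene Egfr was at 132, 128 and 117 CPM in Upd and at 23.6, 15.9 and 22.8 CPM in WT, with less spread among the Upd libraries than in any other group relative to the mean. The log2 change was 2.59 ± 0.81 (adjusted p = 0.0156), and the call was lost without WT 2 (0.0715) or without WT 3 (0.0521). Ci libraries were at 66.8, 19.4 and 32 CPM and overlapped WT, whereas those labelled chinmo RNAi were at 41.1, 59.1 and 43.3 CPM and did not. Neither group passed the test against WT. Chinmo 1 and Chinmo 2 were at 24.2 and 31.6 CPM, and Chinmo 3 had no count of Egfr.

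Of the cascade genes, Ras85D, the Ras GTPase, was at 53.5, 53.0 and 60.2 CPM in Upd and at 92.4, 99.5 and 70.3 CPM in WT. It was the only member with a lower mean in Upd than in WT, by a log2 change of -0.65 ± 0.68 (adjusted p = 0.486, 95% interval -2.05 to 0.75). Its highest levels were in the libraries labelled chinmo RNAi, at 116, 220 and 139 CPM, all above WT, with a log2 change of 0.85 ± 0.68 that did not pass. The MAP kinase gene rl was at 113, 68.7 and 93.6 CPM in Upd and at 63.1, 24.3 and 47.0 CPM in WT, and its log2 change of 1.04 ± 0.59 did not pass either (adjusted p = 0.181, 95% interval -0.18 to 2.25). A fit of Upd and WT alone called 9 members: 8 higher, with vn (adjusted p = 0.0417) and rho (0.00685) among them, and Ras85D lower (log2 change -0.76, adjusted p = 0.0306). In that fit 25.5% of all genes were called higher and 33.5% lower.

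The intracellular inhibitor gene sty, which encodes Sprouty, was at 263, 219 and 235 CPM in Upd and at 23.1, 40.6 and 58.9 CPM in WT. The log2 change was 2.55 ± 0.76 (adjusted p = 0.0114), and the call was lost without WT 1 (0.0662). Ci libraries, at 77.9, 43.0 and 46.9 CPM, overlapped WT. Libraries labelled chinmo RNAi, at 73.1, 92.5 and 68.1 CPM, were all above it, without passing the test. Chinmo libraries were at 42.5, 52.0 and 793 CPM, so that 2 of them sat within the WT range and Chinmo 3 was higher than any other library of the series for this gene.

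Of the nuclear factors, pnt, the activator, was at 213, 164 and 150.0 CPM in Upd and at 31.8, 20.7 and 6.65 CPM in WT, a log2 change of 3.15 ± 0.86 (adjusted p = 0.0061). The repressor gene aop was at 486, 290 and 317 CPM in Upd and at 57.0, 41.4 and 53.7 CPM in WT, a log2 change of 2.85 ± 0.72 (adjusted p = 0.0037). Along with aos, these genes kept their call in Upd against WT under every alternative tried, with adjusted p of at most 0.0400 for pnt, 0.0240 for aop and 0.0127 for aos. In Ci, pnt was at 50.3, 26.0 and 21.8 CPM and aop at 102, 73.4 and 59.7 CPM. Among libraries labelled chinmo RNAi, pnt was at 34.0, 53.3 and 10.3 CPM and aop at 75.0, 69.4 and 86.2 CPM. So aop lay wholly above WT in both groups and pnt overlapped it, with no call for either.

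**Figure D2:**
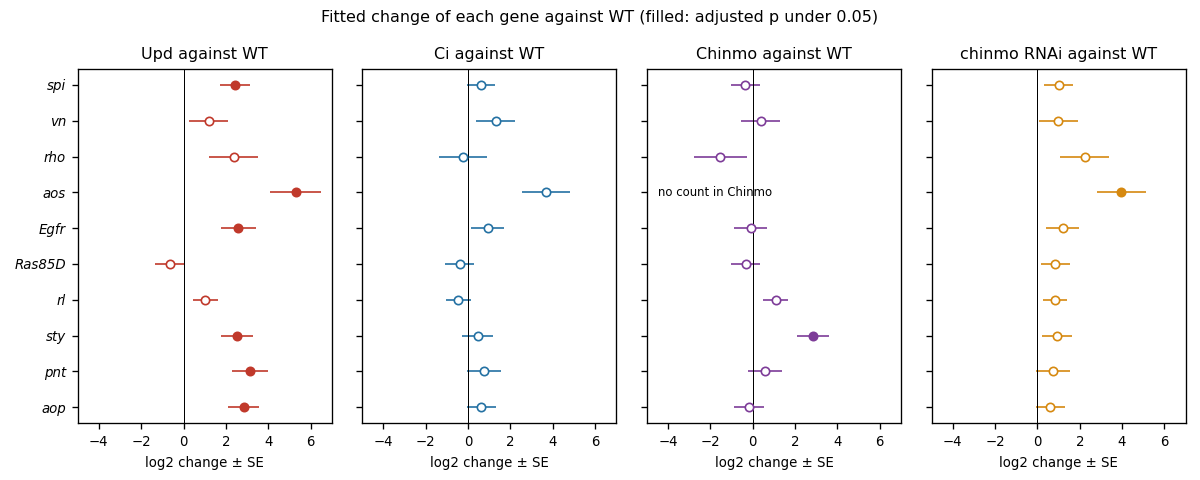
Fitted log2 change against WT (horizontal axis, with SE bars) of the 10 genes in Upd, Ci, Chinmo and the libraries labelled chinmo RNAi. Filled points, with an adjusted p under 0.05, number 6 in Upd, 0 in Ci, 1 in Chinmo and 1 in chinmo RNAi, and aos is not drawn for Chinmo, which had no count of it.

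Activator and repressor both rose in Upd, and a change in their ratio was not detected with these libraries. With 0.5 added to each count, the log2 ratio of pnt to aop per kilobase of exon was -1.36, -0.98 and -1.25 in Upd and -1.001, -1.16 and -3.14 in WT, so aop was ahead of pnt in all of these libraries. The difference of the means, 0.57, was within the spread (exact two-sided permutation p = 0.8, where 3 libraries against 3 allow 0.1 at the smallest) and was -0.12 without WT 3. In Ci the ratio differed from WT by 0.28 (exact permutation p = 1) and in the libraries labelled chinmo RNAi by 0.08 (exact permutation p = 1). In Chinmo it was -2.85 and -3.25 in libraries 1 and 2 and 6.34 in Chinmo 3, which had no count of aop. The difference there was 1.84 (exact permutation p = 0.9) and was -1.29 without Chinmo 3. All 4 ratio tests had an adjusted p of 1 after Benjamini-Hochberg adjustment over the 4.

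Per kilobase of exon, which allows levels to be compared between genes, Ras85D was the most abundant of the 10 RNAs in WT, at 44.6 ± 7.78 CPM per kb (SD, n = 3). It was followed there by spi at 24.2 ± 8.64, aop at 9.29 ± 1.51 and sty at 7.51 ± 3.29 CPM per kb, and aos was last at 0.309 ± 0.286 CPM per kb. In Upd the order was headed by spi at 130.0 ± 28.6 CPM per kb, then aop at 66.8 ± 19.5, sty at 43.9 ± 4.07 and pnt at 28.7 ± 5.35 CPM per kb. Ras85D came next in Upd, at 28.4 ± 2.05 CPM per kb, level with pnt within the SD. The gene vn was last there at 5.41 ± 0.531 CPM per kb, while aos had passed rho and vn. At 13.2 ± 1.18 CPM per kb, aos was level within the SD with rl, at 12.1 ± 2.95 CPM per kb.

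**Figure D3:**
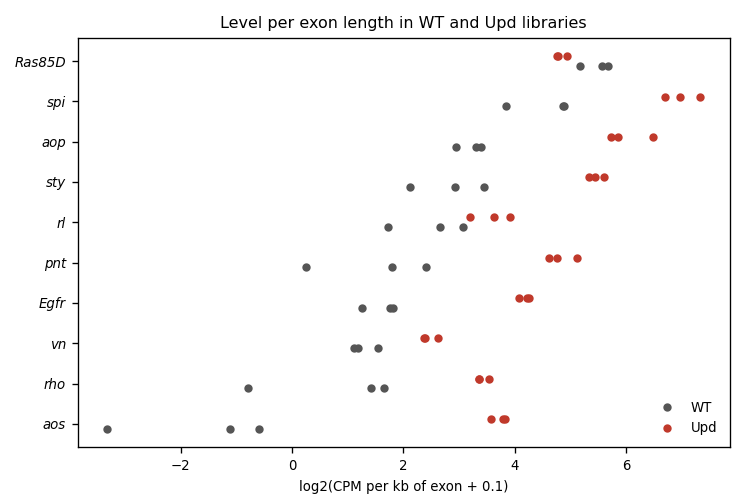
Level of the 10 genes per kilobase of merged exon, as log2(CPM per kb + 0.1), with 1 point per library of WT and Upd. Ras85D holds the highest WT points and spi the highest Upd points, and aos, the lowest in WT, lies above vn in Upd.

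Against Ci, Upd was higher for spi (log2 difference 1.82, adjusted p = 0.0494), sty (2.09, 0.0357), pnt (2.43, 0.0291) and aop (2.22, 0.0191), 4 of the 10 genes, where 5.78% of all genes were higher. The calls of pnt and aop were both lost without Ci 2 (adjusted p = 0.102 and 0.0618), without Ci 3 (0.119 and 0.0835) or without Upd 1 (0.0864 and 0.0787), and that of pnt also without Upd 2 (0.0617) or Upd 3 (0.0551). The call of sty needed each of the 6 libraries, with adjusted p of 0.0535 to 0.125 when any 1 of them was left out. That of spi was lost in 12 of the 15 fits that left out a library, and held without Chinmo 1, 2 or 3. Against the libraries labelled chinmo RNAi, Upd was higher for pnt (2.43, adjusted p = 0.0299) and aop (2.24, 0.0191), 2 of the 10 genes, where 9.7% of all genes were higher. Both calls were lost without Upd 1 (0.0828 and 0.0723) or without library 1 of the chinmo RNAi group (0.0751 and 0.0591), pnt also without Upd 2, Upd 3 or library 3 of that group (0.0566 to 0.113), and aop without its library 2 (0.064). Without Chinmo 3 in the fit, 6 members passed in each of these comparisons. There 9.22% of all genes were called higher and 29.0% lower in Upd against Ci, and 16.4% and 24.3% in Upd against chinmo RNAi.

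Against Chinmo, Upd was higher for spi, rho, aos, Egfr, pnt and aop, 6 of the 10 genes, where 14.4% of all genes were. Of these, rho had a log2 difference of 3.89 (adjusted p = 0.0222) that was lost without Chinmo 2 (0.0722). The call of pnt was lost without Chinmo 1 (0.0749), Chinmo 2 (0.0738) or Upd 1 (0.0584). A fit of Upd and Chinmo alone kept the call of aos and ended the other 5, with adjusted p of 0.0816 for spi, 0.0772 for rho, 0.108 for Egfr, 0.103 for pnt and 0.0917 for aop. With Chinmo 3 left out, 7 members passed. The comparisons with Upd share the Upd libraries, and those with WT share the WT libraries.

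In Ci, the RNA of the 10 genes was not shown to differ from WT. None was called, where 0.00994% of all genes, or 1 gene, were, and DESeq2 called none as well. At an unadjusted p under 0.05 there was 1 member, aos, with a log2 change of 3.67 ± 1.14 (unadjusted p = 0.0042, adjusted p = 1). Every Ci library was above every WT library for spi, vn, aos and aop, 4 of the 10 genes, as it was for 6.35% of all genes. The median log2 change was 0.62 over the members and 0.01 over all genes. The 7 cyst stem cell markers, ptc and chinmo among them, summed to 365 to 522 CPM in Ci, above the 127 to 170 CPM of WT. The 6 markers of differentiating cyst cells summed to 1062 to 2536 CPM in Ci and to 2508 to 3317 CPM in WT. The part of these markers in the levels of the 10 genes was not tested. Between Ci and the libraries labelled chinmo RNAi no member was called by edgeR or DESeq2, while 10.6% of all genes were by edgeR, and 2 members had an unadjusted p under 0.05.

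In Chinmo against WT, 1 of the 10 genes was called, sty, higher by 2.84 ± 0.77 on the log2 scale (adjusted p = 0.0491), where 1.75% of all genes were higher. That value rested on Chinmo 3, in which sty had 477 counts, against 51 and 79 in Chinmo 1 and 2. Without Chinmo 3 the log2 change was -0.06 (adjusted p = 0.948) and no member was called. The call was likewise lost without WT 1 (0.132), WT 2 (0.185) or WT 3 (0.14), and without any 1 library of Ci or Upd or libraries 1 or 3 of the chinmo RNAi group (0.0552 to 0.0748). Chinmo 3 had no count of vn, rho, aos, Egfr or aop, and levels of 1.66 CPM for spi and 3.32 CPM for Ras85D, beside 170 CPM for rl and 74.8 CPM for pnt, above every WT library. Without it, Egfr went from -0.10 to 0.17, aop from -0.18 to 0.11 and pnt from 0.57 to -1.47 (adjusted p = 0.226) on the log2 scale. In Chinmo 1 and 2 pnt was at 8.34 and 8.56 CPM, within the WT range of 6.65 to 31.8 CPM. The 5 hemocyte markers summed to 534 to 947 CPM in Chinmo, of which crq alone was 498 to 941 CPM, while NimC1 was at 0 in all 3 libraries, Hml at 1.32 to 1.67 CPM and Pxn at 0 to 4.99 CPM. In the Chinmo group, 3 to 7 of the 12 early germline markers had a count. The 7 cyst stem cell markers summed to 190.9 to 772.7 CPM, against 126.8 to 170.4 CPM in WT. The forced gene chinmo is 1 of them, at 100.1 of 190.9 CPM in Chinmo 1 and 391.8 of 470.2 CPM in Chinmo 2. In Chinmo 3, which had the sum of 772.7 CPM, 3 of the 7 had a count. The sum therefore does not stand for the other cyst stem cell markers. The 6 markers of differentiating cyst cells summed to 3583 to 5451 CPM, above the 2508 to 3317 CPM of WT. Late germline markers summed to 2177 to 2706 CPM, below the 3932 to 7355 CPM of WT. The part of these cell types in the levels was not tested.

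**Figure D4:**
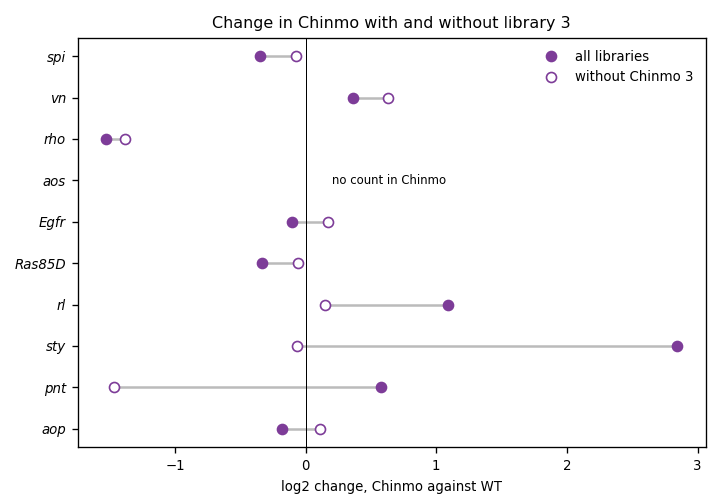
Fitted log2 change of the 10 genes in Chinmo against WT, with all 3 Chinmo libraries (filled) and without Chinmo 3 (open), joined by a line. The line of sty runs from 2.84 to -0.06 and that of pnt from 0.57 to -1.47, and aos is not drawn because Chinmo had no count of it.

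Against Ci, Chinmo was lower for 1 member, aos (adjusted p = 0.0197), where 3.11% of all genes were higher in Ci. The call was lost without Ci 2 (0.0658) or Ci 3 (0.0551). Against the libraries labelled chinmo RNAi, Chinmo was also lower for 1 member, aos (adjusted p = 0.0281), where 1.55% of all genes were lower in Chinmo. That call was lost without library 1 (0.0887) or library 2 (0.0571) of the chinmo RNAi group.

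In the libraries labelled chinmo RNAi, 1 of the 10 genes was called against WT, aos, higher by 3.96 ± 1.16 on the log2 scale (adjusted p = 0.0445), where 1.38% of all genes were higher. The call was close to the threshold and was lost without WT 1 (0.112), WT 2 (0.11), WT 3 (0.161), library 1 (0.128) or library 2 (0.0978) of the group, and without any 1 library of Ci or Upd (0.059 to 0.0689). All 10 fitted changes were above 0, with a median of 0.96, against -0.06 over all genes, and for 7 members every library was above every WT library, as for 15.3% of all genes. Those 7 were spi, aos, Egfr, Ras85D, rl, sty and aop, of which 6 did not pass the test. The 7 cyst stem cell markers, chinmo itself among them, summed to 246.7 to 419.5 CPM in this group, against 126.8 to 170.4 CPM in WT. The 6 markers of differentiating cyst cells summed to 1387 to 2154 CPM, below the 2508 to 3317 CPM of WT. Late germline markers summed to 2292 to 2918 CPM, also below WT, at 3932 to 7355 CPM. Hub markers summed to 904 to 1400 CPM in this group, with hh (177 to 202 CPM), Fas3 (258 to 322 CPM) and shg above every WT library. The 5 hemocyte markers summed to 740 to 833 CPM (246 to 450 CPM in WT), of which crq was 604 to 711 CPM and srp 112 to 201 CPM, while Hml, NimC1 and Pxn were all at 0 in library 2. The 5 neuron markers summed to 268 to 429 CPM (57.0 to 160 CPM in WT), of which nSyb was 187 to 363 CPM, with Syt1 and para at or below 9.64 CPM. The part of these cell types in the levels of the 10 genes was not tested.

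Around the 10 genes, a wider list of 58 genes of EGFR and other receptor tyrosine kinase signalling, members included, had 54 genes tested. Without the members, 44 were tested, of which 8 rose and 4 fell in Upd against WT, with a median log2 change of 0.91, where 9.22% of all genes rose and 25.3% fell. None passed in Ci, where 0.00994% of all genes did. In Chinmo 1 rose, where 1.75% of all genes did, and 2 rose in the libraries labelled chinmo RNAi, where 1.38% did. With 44 genes tested, counts of 1 or 2 are too small to be read against those shares. By role, and members included, both extracellular inhibitors rose in Upd, as did 3 of 8 cytoplasmic inhibitors, 3 of 5 nuclear effectors and 1 of 6 genes for the receptor and its adaptors, and 0 of 7 genes of the cascade from Ras to MAP kinase changed either way. Roles of 2 to 8 genes are too small for their counts to be read against those shares. The cascade's median log2 change was 0.32.

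Among the inhibitors, Gap1, whose product turns Ras off and which the table lists as RasGAP1, stood at 174, 128 and 145 CPM in Upd, with 31.3, 9.15 and 12.8 CPM in WT, a log2 change of 3.07 ± 0.65 (adjusted p = 0.00076). The gene kek1, which encodes a transmembrane inhibitor of Egfr, was at 204, 174 and 161 CPM against 37.5, 29.8 and 23.3 CPM, a log2 change of 2.57 ± 0.73. Both groups were clear of each other for both genes. PTP-ER, a phosphatase of the MAP kinase, was at 87.5 ± 8.21 CPM against 21.6 ± 8.02 CPM (SD, n = 3), a log2 change of 2.02 ± 0.71. Its call was lost without any 1 Upd library or without WT 2 or WT 3 (adjusted p = 0.0745 to 0.119). The call was also lost under 1 of the 7 alternatives of scaling, filter, test or fit (adjusted p = 0.0748). The co-repressor gene gro was at 266, 259 and 229 CPM in Upd and at 64.2, 62.5 and 61.2 CPM in WT, a log2 change of 2.00 ± 0.60.

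Star, listed as S, whose product moves Spitz to the compartment where it is cut, averaged 126 ± 17.0 CPM over the Upd libraries and 37.0 ± 13.8 CPM over those of WT (SD, n = 3; log2 change 1.77 ± 0.60), a call lost without Upd 1, Upd 2, WT 1 or WT 2 (adjusted p = 0.0582 to 0.112). The rhomboid family gene rho-6 ran the other way, with 23.1, 39.4 and 19.0 CPM in WT and no count in Upd. Its mean in WT was 77.6-fold the limit of 0.35 CPM that 3 counts over the Upd libraries allow, for counting error alone. The ligand gene Krn, which encodes Keren and is named because its values ran against those of spi, averaged 14.9 CPM in the Upd libraries and 63.9 CPM in WT and did not pass (adjusted p = 0.0556). Rac2, a small GTPase of the Rac type, was at 135 ± 20.7 CPM against 41.5 ± 16.0 CPM (log2 change 1.70 ± 0.54), with the call lost without Upd 1, Upd 3, WT 2 or WT 3 (adjusted p = 0.0522 to 0.0821).

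Outside the EGFR branch, 5 of 12 genes for other receptor tyrosine kinases and their ligands changed in Upd, a share near the 34.5% of all genes that changed. The PDGF- and VEGF-like ligand gene Pvf1 fell from 138 ± 31.2 to 40.9 ± 9.09 CPM (SD, n = 3; log2 change -1.76 ± 0.42). The receptor gene Alk had 253 counts in Upd and 6 in WT, all 6 in WT 2, and the receptor gene tor had 98 and 2. The calls of Alk (without WT 1 or WT 3) and tor (without Upd 2 or any 1 WT library) were lost at adjusted p of 0.0511 to 0.0759. The ligand gene boss had 0 counts against 19, and its call was lost without Upd 2, Upd 3 or WT 2 (0.0545 to 0.0577). Its mean in WT was 7.93-fold the limit that 3 counts over the Upd libraries allow, for counting error alone. Alk and tor entered the tests through their counts in Upd, and boss through those in the chinmo RNAi and Chinmo libraries. Their calls, and the 5 of 12, therefore rest in part on the groups that let these genes in. The FGF ligand gene ths also fell, named here to complete the count (log2 change -2.34 ± 0.76). It was at 39.5, 3.16 and 1.87 CPM in Upd and at 104, 48.1 and 72.2 CPM in WT. Whether the call of ths held with a library left out was not examined. In the libraries labelled chinmo RNAi the genes that rose were Pvf1, at 399 ± 44.7 CPM, and boss, at 56.5 ± 46.5 CPM, both opposite in sign to Upd. Both calls were lost without any 1 WT library or any 1 library of the group, and that of boss also without any 1 Ci library (adjusted p = 0.0509 to 0.157). Each was also lost under 2 of the 7 alternatives of scaling, filter, test or fit (adjusted p up to 0.0582 for Pvf1 and 0.0574 for boss).

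**Figure D5:**
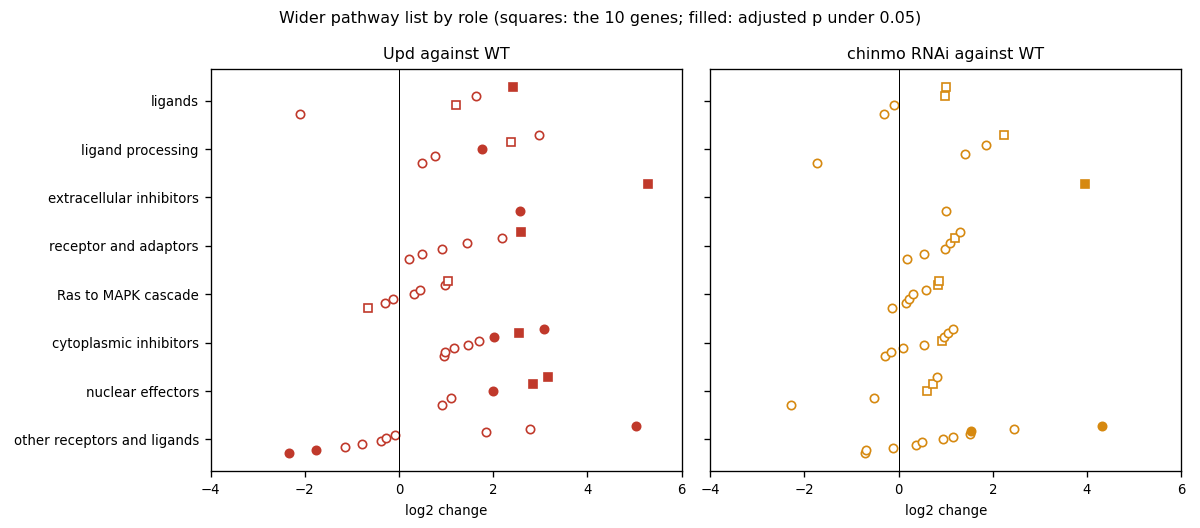
Fitted log2 change of the wider list against WT, by role (rows), in Upd and in the libraries labelled chinmo RNAi. Squares are the 10 genes, circles the other genes and filled marks have an adjusted p under 0.05, and the role that holds Rac2 and genes with 3 counts or fewer in a group are left out. No mark of the row from Ras to MAP kinase is filled in either panel, and both marks of the extracellular inhibitors are filled in Upd.

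Over the 15 libraries, the gene with the pattern most like each member was found by the root mean square difference of centred log2 CPM. The search covered 3958 genes with enough counts, and left out the members and all genes named by a CG or CR number. For spi the nearest of these was Sos, the exchange factor that loads Ras, with a difference of 0.337, followed by Map60 and tay. For Egfr it was row (0.316), then Fas2 and tay, and for aop it was E(Pc) (0.327), then fs(1)h and pds5. For sty it was hay (0.457), then cg and Rbp2. Patterns of the other members that passed the test among groups were matched less closely, by rig (0.724), Snoo and Dek for pnt, by Uhg5 (0.714), Mur2B and SKIP for rho, and by dsx (1.13), Cubn and SP1173 for aos. These matches leaned on Chinmo 3, since without it 3 of the 21 remained, Sos, Uhg5 and Cubn. Among the members themselves, spi and Egfr differed by 0.472 (0.462 without Chinmo 3) and Egfr and aop by 0.50 (0.424). The pairs of sty with Egfr and with aop went from 2.27 and 2.55 to 0.364 and 0.409 when Chinmo 3 was left out. These are descriptions over libraries that share their groups, depth and marker differences, and Sos itself missed the threshold in Upd against WT (adjusted p = 0.0574).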

How the data were processed

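RNA-seq gene counts from 15 libraries in 5 groups were analysed. Per the submitters' processing notes, the authors used bcl2fastq, STAR, Picard, HTSeq and DESeq2 with the builds dm6 and BDGP6. The strand setting of the counting, tool versions and the annotation release were not given in the sources used here, so reads of genes that overlap on opposite strands cannot be told apart. The counts were deposited as whole numbers per gene, and 5 summary lines, with 23.5% to 38.6% of the reads, were left out.

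Counts were scaled by TMM and filtered by filterByExpr, which kept 10056 genes. All libraries entered 1 quasi-likelihood fit with a mean for each group (edgeR 4.0.16, robust, R 4.3.3; common dispersion 0.427). Tests were two-sided, with Benjamini-Hochberg adjustment over all genes tested and a threshold of 0.05. Changes are fitted log2 changes with SE, and levels are CPM after TMM scaling. Exon lengths came from BDGP6.54, where 12903 symbols matched directly, 4335 by a synonym and 170 not at all. A gene without counts in a group got the limit that 3 counts over its libraries allow, for counting error alone.

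The labels' replicate numbers are shared by the groups but were not taken as pairs: 2 of 30 same-numbered pairs of libraries deviated together with a correlation over 0.1. Both were of Ci with WT, at 0.295 for Ci 1 with WT 1 and 0.103 for Ci 2 with WT 2. Ci 3 with WT 3 was at -0.0199. No libraries of a group were duplicates (chi-square per degree of freedom of 5.86 or more). Alternatives were size factor and upper quartile scaling, no filter, 5 CPM in 3 libraries, DESeq2 1.42.0, the replicate block, only the 2 groups compared, and each library left out. The scripts were tested on simulated data.

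The 10 genes, the wider list and the marker lists were chosen with earlier results of these data known. Genes named from the wider list are those called against WT, up to 4 per role by smallest adjusted p, and Krn, ths and Sos, in the test against WT, were named after their values were seen. Genes of like pattern are the 3 nearest, with a mean of 10 CPM or more, to each member that differed among the groups. Members and genes named by a CG or CR number could not be picked. As an exception, 1 result of the wider list is not reported here.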

Additional observations from a re-analysis of the deposited data

How the results depend on the processing

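In Upd against WT the 10 genes kept their direction under every alternative, and 4 to 6 were called when 1 library was left out, 5 with DESeq2, which gave no adjusted p for sty, and 9 with only the 2 groups compared. In Ci against WT no alternative called a member. The single calls were less firm. In Chinmo against WT the count of members called was 0 under size factor scaling, the replicate block, only the 2 groups compared and DESeq2, which gave sty no adjusted p, and 0 to 1 with a library left out. In the libraries labelled chinmo RNAi against WT it was 0 with the replicate block and 0 to 1 with a library left out. It was also 0 with only the 2 groups compared, where the filter dropped aos, so that aos was not tested.

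With only the 2 groups compared, 8 members were called in Upd against Ci, 1 in Upd against Chinmo, 6 in Upd against chinmo RNAi, 0 in Ci against Chinmo and, with aos again dropped by the filter, 0 in Chinmo against chinmo RNAi. In those fits 19.6% of all genes were called higher and 32.8% lower in Upd against Ci. The shares were 10.8% and 12.7% in Upd against Chinmo, and 18.8% and 24.9% in Upd against chinmo RNAi. DESeq2 called 4 members in Upd against chinmo RNAi, where it called 16.5% of all genes higher and 18.2% lower. It called 2 in Chinmo against chinmo RNAi, where the shares were 5.83% and 5.61%. Without a filter there were 2 in Ci against Chinmo and 3 in Chinmo against chinmo RNAi, and upper quartile scaling gave 3 in Ci against Chinmo. With a library left out the counts ran from 0 to 6 in Upd against Ci, 0 to 6 in Upd against chinmo RNAi, 4 to 7 in Upd against Chinmo, 0 to 4 in Ci against Chinmo, 0 to 3 in Chinmo against chinmo RNAi and 4 to 9 among the 5 groups. The replicate block called no member in Chinmo against chinmo RNAi (0) and turned rho in Ci against WT from -0.24 to 0.057, and 3 of 15 libraries matched best a library of their own number.

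Directions that turned with a library left out were those of small changes or of Chinmo. On the log2 scale, rho in Ci against WT ran from -0.70 to 0.18, vn in chinmo RNAi against WT from -0.014 to 1.31, and in Chinmo against WT vn ran from -0.60 to 0.63, Egfr from -0.68 to 0.17, sty from -0.065 to 3.35, pnt from -1.47 to 1.03 and aop from -0.79 to 0.11. The ratio of pnt to aop in Chinmo could not be computed with nothing added to the counts. Of the other values for single genes, 1345 stayed on their side of the threshold, 129 fell behind it and 3 passed it.

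Calls over all genes varied too. In Chinmo against WT they numbered 282, against 662 with upper quartile scaling, 814 without a filter, 11 with the replicate block, 1 with the 2 groups alone and 1534 with DESeq2, and 0 to 887 with a library left out. In chinmo RNAi against WT there were 680, against 1062 without a filter, 358 with the block, 1388 with the 2 groups alone, 1659 with DESeq2 and 35 to 1963 with a library left out. In Upd, the 3473 against WT became 5350, the 2949 against Ci 4792 and the 3885 against Chinmo 1807 with the 2 groups alone. In Ci against WT 1 became 2 without a filter, 3 with the 2 groups alone and 2 with DESeq2. The 812 in Ci against Chinmo became 400 with the block, 3 with the 2 groups alone and 2311 with DESeq2, and the 1061 in Ci against chinmo RNAi became 694 with the block and 2057 with DESeq2. The 380 in Chinmo against chinmo RNAi became 767 without a filter, 89 with the block, 4 with the 2 groups alone and 1193 with DESeq2.

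Scaling moved the median of all genes by 0.23 in Upd against WT (upper quartile), by -0.30 in Chinmo and -0.29 in chinmo RNAi against WT (size factors). It changed the split of higher and lower calls from 176 and 106 to 79 and 124 (size factors) or 480 and 182 (upper quartile) in Chinmo, and from 139 and 541 to 88 and 790 in chinmo RNAi. By size factors it went from 975 and 2058 to 1353 and 1782 in Upd against chinmo RNAi, from 313 and 499 to 693 and 402 in Ci against Chinmo and from 722 and 339 to 1038 and 214 in Ci against chinmo RNAi. The causes were not tested. Depth limits the low genes: aos had 6 counts in all WT libraries together.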
